A study of Mus musculus with 28 samples.

Results

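Nfil3, the PAR bZIP genes Dbp, Tef and Hlf, and the C/EBP genes Cebpa, Cebpb, Cebpd, Cebpe and Cebpg are 9 of the 55487 genes in the count tables of this study, and they were taken by gene symbol, 1 row per Ensembl gene ID. RNA was sequenced from dendritic cells sorted from mouse spleen, in 28 libraries that form 14 groups of 2 biological replicates over 2 experiments. They came from both types of conventional dendritic cell, cDC1 and cDC2, and from a population labelled hybrid DC. The question put to these 9 genes was how their levels differed between the cell types, between the alleles of the Irf8 +32 kb enhancer, and after loss of Nfil3 or change of the Zeb2 -165 kb enhancer.

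NFIL3 is a basic leucine zipper repressor that is required for cDC1 development, where it lies upstream of Zeb2 and Id2. The PAR bZIP proteins DBP, TEF and HLF are activators that bind the same D-box sequence as NFIL3, and their genes are outputs of the circadian clock, driven through E-box sequences by CLOCK and BMAL1. The C/EBP proteins are bZIP factors of myeloid cells: C/EBPα acts in myeloid progenitors, C/EBPβ and C/EBPδ in inflammatory and stress responses, C/EBPε in granulocytes, and C/EBPγ lacks the activation domain of the others and works as a dimer partner. The Zeb2 -165 kb enhancer holds sites that NFIL3 and C/EBP proteins can both bind, and the D123 allele alters these sites.

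The labels give C57BL/6 for every library. Experiment 1 held cDC1 and cDC2 of WT mice, of mice with 1 copy of the Irf8 +32H allele (H/+) and of mice with 2 copies (H/H), and hybrid DCs of the H/+ and the H/H mice. In experiment 2 there were cDC1 of WT mice and H/H mice, cDC1 and hybrid DCs of H/H mice that also lacked Nfil3 (H/H Nfil3-/-), hybrid DCs of H/H mice, and hybrid DCs of H/H mice with the altered Zeb2 enhancer (H/H Zeb2 -165D123). Every Nfil3-/- and Zeb2 -165D123 group thus also carried the H/H allele. Age, sex and sort gates are not in the sources used here. The 2 replicates of a group are called biological duplicates in the labels. P-values set a difference against the spread between replicates, estimated over all groups of an experiment and not only those compared.

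Library totals ran from 23393634 to 38174251 counts in experiment 1 and from 17540496 to 22708493 in experiment 2. The labelled cell types carried their markers: the summed level of 14 cDC1 markers such as Xcr1 and Clec9a was 5599 to 5660 CPM in WT cDC1 and 366 to 376 CPM in WT cDC2 (CPM, read counts relative to the scaled library total). The 14 cDC2 markers summed to 2046 to 2150 CPM in WT cDC2 and 223 to 228 CPM in WT cDC1, with 13 of them lower and 1 higher in WT cDC1. In experiment 1 the 8 libraries numbered 2 each held at least 3674 counts of Xist, the RNA of the inactive X chromosome, and the 8 numbered 1 held at most 1, so the 2 replicates of each group differed in this respect. In experiment 2, 3 of the 12 libraries held at least 3318 counts of Xist, all of them numbered 2, and the others at most 8. Some groups of experiment 2 thus held such a library and others none. The main fits held no term for Xist. In bulk samples fewer cells of a type and less RNA per cell cannot be told apart.

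The 9 genes lie on 7 chromosomes in the GENCODE M21 annotation of GRCm38, and each is a protein-coding gene. Nfil3 (ENSMUSG00000056749) is at chr13:52967209-52981073 on the minus strand. Dbp (ENSMUSG00000059824) is at chr7:45705088-45710203, Tef (ENSMUSG00000022389) at chr15:81802421-81826863 and Hlf (ENSMUSG00000003949) at chr11:90336536-90390895. Cebpa (ENSMUSG00000034957) at chr7:35119293-35121928 and Cebpg (ENSMUSG00000056216) at chr7:35046422-35056573 are neighbours on chromosome 7. Cebpb (ENSMUSG00000056501) is at chr2:167688915-167690418, Cebpd (ENSMUSG00000071637) at chr16:15887286-15891031 and Cebpe (ENSMUSG00000052435) at chr14:54710360-54712174. The library kit does not mark strand, and exons of Dbp overlap those of Sphk2 on the opposite strand, those of Cebpb overlap Tmem189 and those of Cebpd overlap Spidr, so reads from these pairs cannot be told apart.

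Promoter windows from RefSeq (GRCm38.p6, 250 bases before to 50 after a gene's start) were found for 7 of the 9 genes, all but Cebpd and Cebpe. They were searched on both strands for the D-box sequences TTATGTAA and TTACGTAA, the C/EBP sequences TTGCGCAA, TTGCACAA, TTGTGCAA and TTGCAAT, and the E-box CACGTG. TTGCACAA and TTGTGCAA are reverse complements and so 1 motif. The stretches that held a motif are shown for the members Dbp and Tef, and for the clock gene Per3, which held a D-box. Windows of other genes listed beside the members also held motifs, and these stretches are not shown. They were TTGCAAT in Clock and in Zeb2 (positions -222 and -167), and CACGTG in Per1, Cry1, Bhlhe41, Ciart, Batf3, Bcl6, Egr2 and Dusp1. Each is written 5′ to 3′ on the gene's strand, in lower case with the motif in capitals.
Dbp, chr7:45705229-45705246, plus strand, TTGCAAT read on the other strand: tctgggtgcagATTGCAA
Tef, first window, chr15:81802534-81802563, plus strand, CACGTG: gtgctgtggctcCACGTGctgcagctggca
Tef, second window, chr15:81811264-81811293, plus strand, CACGTG: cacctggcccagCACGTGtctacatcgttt
Per3, chr4:151044852-151044881, minus strand, TTATGTAA: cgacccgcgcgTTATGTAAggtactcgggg
Per3, chr4:151044805-151044834, minus strand, TTATGTAA: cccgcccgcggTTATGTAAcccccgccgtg
Positions are relative to RefSeq starts, and the stretches of Dbp and Tef lie inside the GENCODE spans of these genes given above. Both RefSeq starts of Tef carried an E-box, at positions -127 and -138, and 7.15% of all 32851 promoter windows held CACGTG. The window of Dbp held TTGCAAT from position -7, a motif found in 2.22% of windows. Per3, a period gene of the clock, held TTATGTAA at 2 places, and 0.938% of windows held it at least once. TTACGTAA was in 0.119% of windows, TTGCGCAA in 0.183% and TTGCACAA in 1.01%. The windows of Nfil3, Hlf, Cebpa, Cebpb and Cebpg held none of these letters.

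Cebpg and Nfil3 had the highest levels of the 9 genes in experiment 1, compared per kilobase of exon so that genes of different length can be set side by side. The mean over the 16 libraries of experiment 1 was 4.32 CPM per kb for Nfil3, 2.65 for Cebpg, 1.06 for Dbp, 0.977 for Cebpa and 0.788 for Tef. Cebpb (0.284) and Cebpd (0.171) were lower, and Hlf (0.00818) and Cebpe (0.0142) were close to 0. The neighbours Dbp, Cebpa and Tef in this order had no fixed rank across groups: Dbp led Cebpa and Tef in WT cDC2 (1.66, 1.05 and 1.14 CPM per kb), and Cebpa led Dbp and Tef in H/H cDC1 (0.941, 0.709 and 0.489). Hlf and Cebpe were too low to be tested, so 7 of the 9 genes passed the filter on low counts in each experiment.

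**Figure D1:**
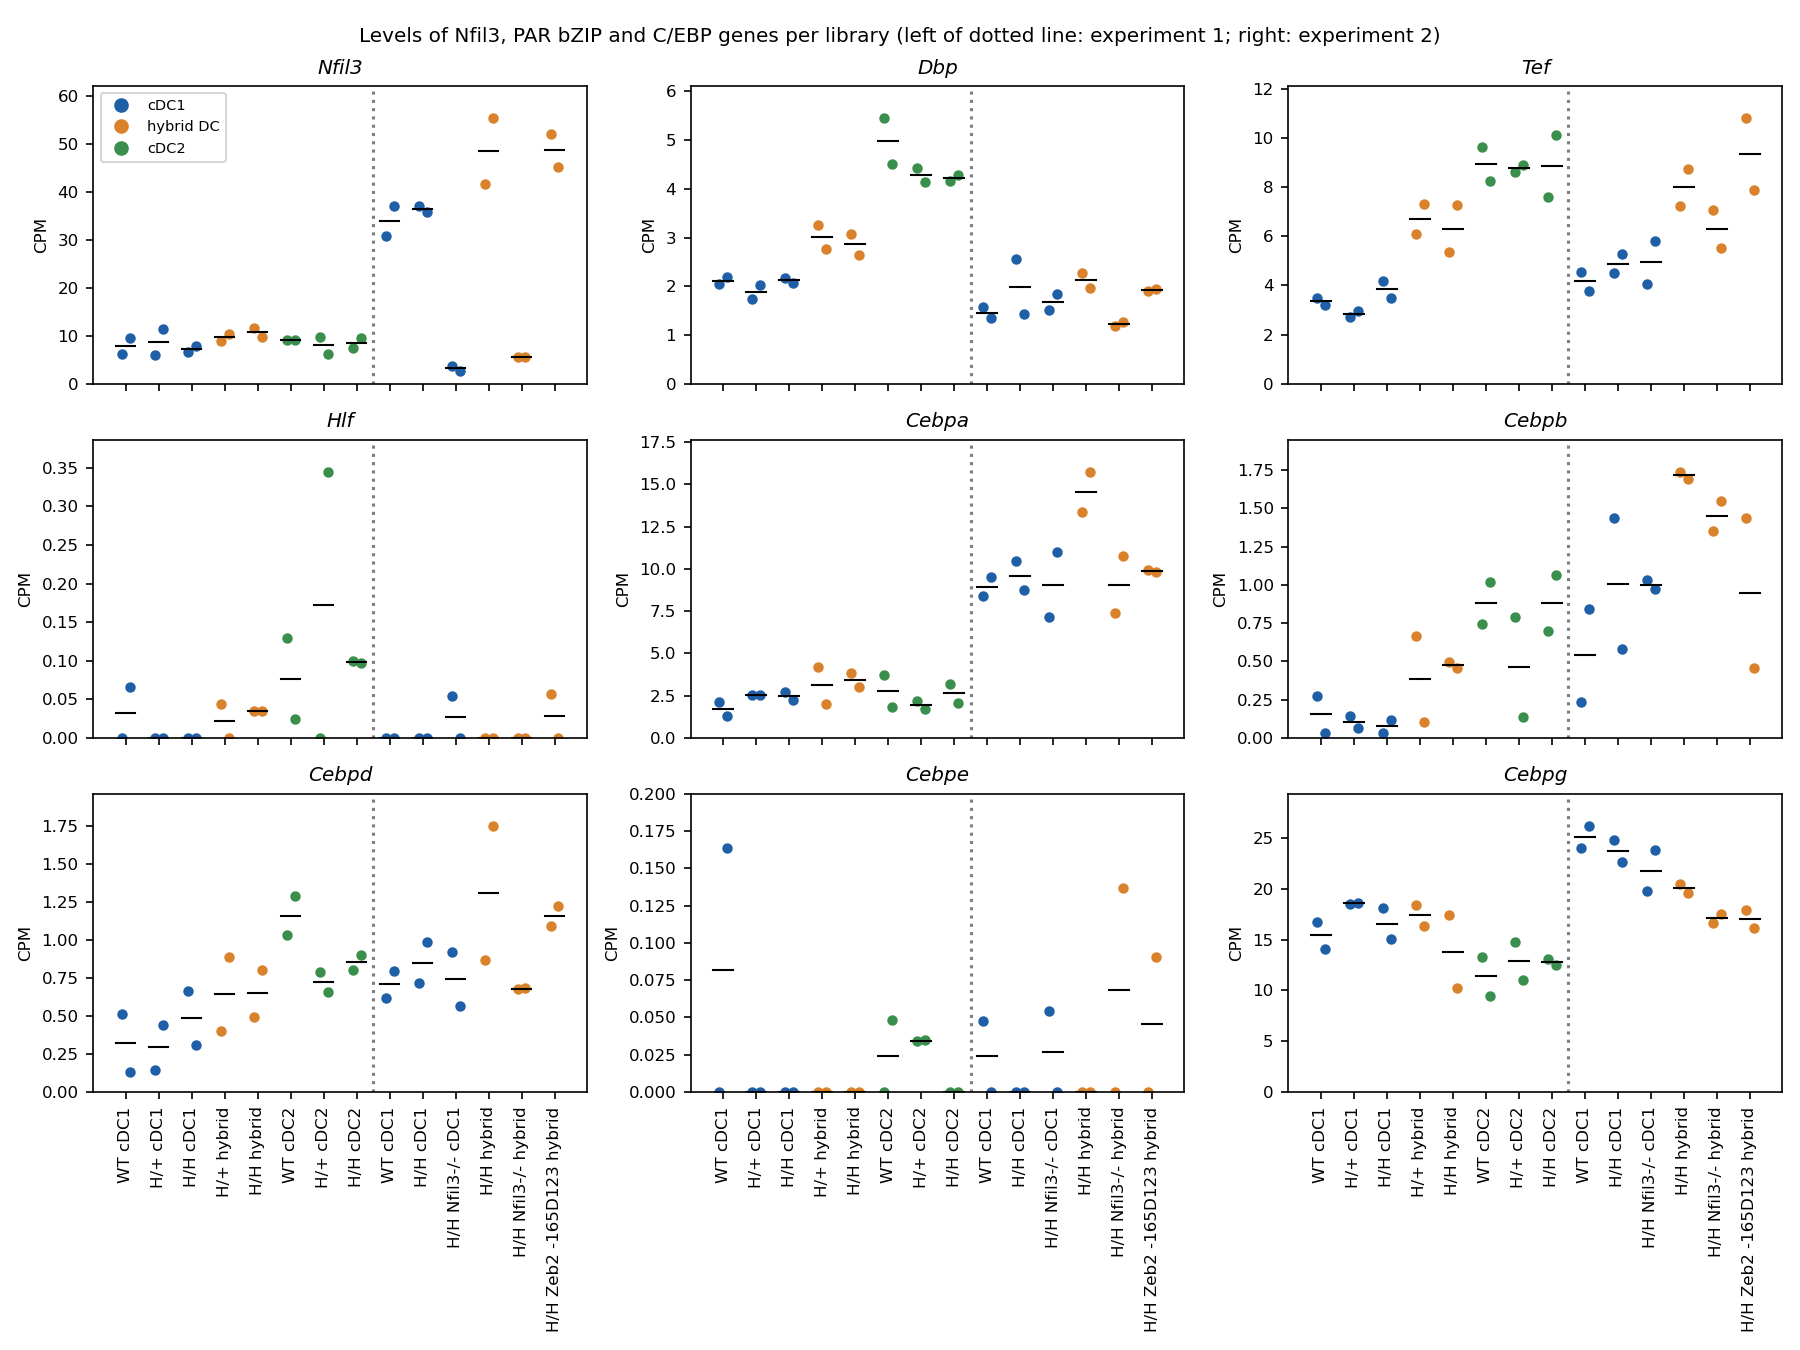
Level of each of the 9 genes (CPM of the scaled library, linear axis from 0, own scale per panel) in each library of the 14 groups. Points are libraries, short bars the mean of 2, colours the cell type, and the dotted line separates experiments 1 and 2. Dbp and Tef step up from cDC1 through hybrid DC to cDC2 in experiment 1, Nfil3 drops in the Nfil3-/- groups, and Nfil3 and Cebpa stand higher in experiment 2.

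Among groups with intact Nfil3, no difference in Nfil3 between cell types of the same genotype passed the threshold. The threshold was an adjusted p of 0.05 (Benjamini-Hochberg over all genes tested). In WT cDC1 the libraries held 6.21 and 9.59 CPM, and in WT cDC2 9.13 and 9.17 CPM. H/+ cells held 6.03 and 11.3 CPM in cDC1, 9.00 and 10.4 CPM in hybrid DCs and 9.79 and 6.24 CPM in cDC2. H/H cells held 6.56 and 7.93 CPM in cDC1, 11.7 and 9.77 CPM in hybrid DCs and 7.47 and 9.64 CPM in cDC2. The groups of cDC1 and cDC2 overlapped in all 3 genotypes, and only H/H hybrid DCs stood clear of the cDC1 and cDC2 of the same genotype. How many of all genes stood clear in this way is not given here. WT cDC1 differed from WT cDC2 by a log2 fold change of -0.21 ± 0.29 (SE; 95% interval -0.83 to 0.42), with an adjusted p of 0.60 in edgeR's quasi-likelihood test. The log2 difference of hybrid DCs over cDC1 was 0.16 ± 0.29 in H/+ mice, 0.57 ± 0.29 in H/H mice of experiment 1 and 0.42 ± 0.16 in H/H mice of experiment 2, with adjusted p of 0.79, 0.30 and 0.099 by edgeR. These intervals include no change in H/+ and in H/H of experiment 1, and in experiment 2 the unadjusted interval ran from 0.08 to 0.75.

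Zeb2, which NFIL3 represses in the development of cDC1, was much higher in cDC2 and hybrid DCs than in cDC1. Its mean level was 0.855 CPM in WT cDC1, 77.3 CPM in WT cDC2, 55.9 CPM in H/+ hybrid DCs and 40.1 CPM in H/H hybrid DCs of experiment 1. Hybrid DCs of H/+ mice exceeded their cDC1 by a log2 fold change of 4.42 for Zeb2 (adjusted p 5.56e-07 by edgeR), beside 0.16 for Nfil3. The mean of Zeb2 in the Nfil3-/- groups was below that in H/H cells of the same type. H/H Nfil3-/- hybrid DCs held 23.7 CPM against 42.8 CPM in H/H hybrid DCs (log2 fold change -0.85 ± 0.25 SE, adjusted p 0.081 by edgeR). H/H Nfil3-/- cDC1 held 4.91 CPM against 6.89 CPM in H/H cDC1 (-0.49 ± 0.30, adjusted p 0.47 by edgeR). Neither difference passed.

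The Nfil3-/- libraries had less Nfil3 RNA but not 0. H/H cDC1 held 36.9 and 35.7 CPM, and H/H Nfil3-/- cDC1 held 3.68 and 2.76 CPM. H/H hybrid DCs held 41.5 and 55.3 CPM, and H/H Nfil3-/- hybrid DCs held 5.62 and 5.70 CPM. No library of a Nfil3-/- group reached any library with intact Nfil3. Nfil3 fell 11.3-fold in cDC1 (log2 fold change -3.50 ± 0.19 SE, adjusted p 5.54e-08 by edgeR) and 8.55-fold in hybrid DCs (-3.10 ± 0.18, adjusted p 1.35e-07). Of all genes tested, 3.03% passed the threshold between Nfil3-/- and H/H cDC1 and 3.73% between Nfil3-/- and H/H hybrid DCs. The tables give 1 value per gene, so the RNA that remained cannot be placed within the gene.

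The remaining Nfil3 RNA was higher in Nfil3-/- hybrid DCs (5.62 and 5.70 CPM) than in Nfil3-/- cDC1 (3.68 and 2.76 CPM). The groups did not overlap, and the share of all genes without overlap is not given here. The log2 fold change was 0.82 ± 0.21 (SE), with an adjusted p of 0.030 by edgeR, in a comparison in which 5.28% of genes passed. This call was lost in a fit of only the 4 libraries compared (adjusted p 0.077), without replicate 2 of Nfil3-/- cDC1 (0.30) and without replicate 1 (0.12) or replicate 2 (0.13) of Nfil3-/- hybrid DCs. Between the Nfil3 effects in hybrid DCs and in cDC1, Nfil3 itself differed by 0.40 ± 0.26 on the log2 scale (adjusted p 1.00 by edgeR), and 0.00689% of genes passed.

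Dbp and Tef, the PAR bZIP genes with measurable levels, were lower in cDC1 than in cDC2 in all 3 genotypes. For Dbp the libraries of WT cDC1 held 2.04 and 2.19 CPM, and those of WT cDC2 5.45 and 4.51 CPM. For Tef they held 3.50 and 3.21 CPM in WT cDC1, and 9.64 and 8.25 CPM in WT cDC2. Every cDC2 library of every genotype exceeded every cDC1 library of experiment 1 for both genes. For how many of all genes this held is not given here. In WT mice Dbp was 2.34-fold lower in cDC1 (log2 fold change -1.23 ± 0.21 SE, adjusted p 2.09e-04) and Tef 2.67-fold lower (-1.41 ± 0.21, adjusted p 4.86e-05), both by edgeR.

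H/+ and H/H mice showed the same order of cell types. H/+ cDC1 held 1.73 and 2.03 CPM of Dbp and H/+ cDC2 4.43 and 4.14 CPM, a log2 fold change of -1.18 ± 0.21 (adjusted p 4.02e-04 by edgeR). H/+ cDC1 held 2.71 and 2.98 CPM of Tef and H/+ cDC2 8.62 and 8.90 CPM, a log2 fold change of -1.62 ± 0.21 (adjusted p 1.84e-05 by edgeR). In H/H mice Dbp was lower in cDC1 by -0.99 ± 0.21 and Tef by -1.20 ± 0.20 on the log2 scale, with adjusted p of 0.00174 and 2.88e-04 by edgeR. These calls for Dbp and Tef passed in every alternative fit, including those without any single library. Such calls were common: 44% of genes passed between cDC1 and cDC2 in WT mice, 38.3% in H/+ mice and 36.7% in H/H mice. Of the 7 members tested, 4, 2 and 3 passed in these comparisons, all lower in cDC1. Sphk2, whose exons overlap Dbp on the other strand, went the other way in WT mice, with 43.1 CPM in cDC1 and 33.7 CPM in cDC2 (adjusted p 0.041).

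**Figure D2:**
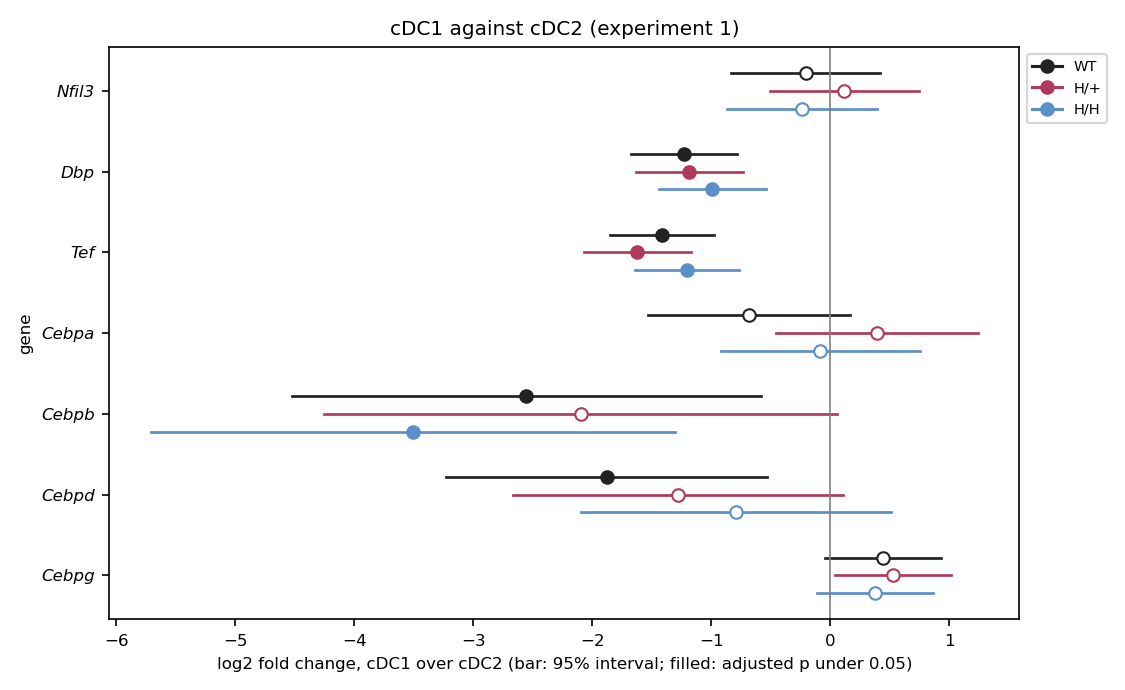
Log2 fold change of cDC1 over cDC2 with its 95% interval for the 7 genes tested, in WT, H/+ and H/H mice of experiment 1. Filled points passed an adjusted p of 0.05. Dbp and Tef sit left of 0 in all 3 genotypes, Cebpb and Cebpd have wide intervals, and Nfil3, Cebpa and Cebpg have no filled point.

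Hybrid DCs had Dbp and Tef levels between those of cDC1 and cDC2. In H/+ hybrid DCs Dbp was at 3.25 and 2.77 CPM and Tef at 6.10 and 7.31 CPM. In H/H hybrid DCs of experiment 1 Dbp was at 3.06 and 2.65 CPM and Tef at 5.35 and 7.26 CPM. All 4 hybrid libraries of experiment 1 lay above all cDC1 libraries and below all cDC2 libraries for both genes. How many of all genes showed this order is not given here.

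Tef rose in H/+ hybrid DCs over H/+ cDC1 by a log2 fold change of 1.24 ± 0.21 (SE, adjusted p 6.73e-04 by edgeR), and Dbp by 0.67 ± 0.22 (adjusted p 0.045), where 16.5% of genes passed. The Dbp call did not pass in DESeq2 (adjusted p 0.11), without a filter on low counts (0.24), in a fit of only the 4 libraries (0.22) or without any 1 of them, with adjusted p from 0.071 without H/+ cDC1 replicate 2 through 0.082 without hybrid replicate 2 and 0.22 without H/+ cDC1 replicate 1 to 0.24 without hybrid replicate 1. In H/H mice of experiment 1, where 7.85% of genes passed, Tef rose by 0.71 ± 0.21 (adjusted p 0.048), and Dbp differed by 0.43 ± 0.21 (adjusted p 0.28). The Tef call was lost in a fit of only the 4 libraries (adjusted p 0.054), without H/H cDC1 replicate 1 (0.093) or replicate 2 (0.30) and without H/H hybrid replicate 2 (0.40). In experiment 2 H/H hybrid DCs held 7.22 and 8.74 CPM of Tef and H/H cDC1 4.51 and 5.27 CPM. The log2 difference of 0.70 ± 0.24 was of the same size, its adjusted p was 0.070 by edgeR, and 12.5% of genes passed. Dbp differed there by 0.10 ± 0.34 (95% interval -0.62 to 0.82).

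Against cDC2 of the same genotype, no member passed the threshold in hybrid DCs, while 19% of genes passed in H/+ mice and 25.4% in H/H mice. At an unadjusted p under 0.05 the members that differed were Dbp in H/+ mice and Dbp and Tef in H/H mice, all lower in hybrid DCs. The share of all genes under that unadjusted p is not given here and is at least the 19% and 25.4% that passed. Dbp was at -0.51 ± 0.21 in H/+ and -0.56 ± 0.21 in H/H hybrid DCs on the log2 scale, with adjusted p of 0.10 and 0.057 by edgeR. Tef was at -0.38 ± 0.20 and -0.49 ± 0.20, with adjusted p of 0.21 and 0.084. Between H/H and H/+ hybrid DCs no member passed, beside 0.131% of genes.

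Markers of other cells moved with these hybrid comparisons. In H/+ hybrid DCs 10 of 15 monocyte and macrophage markers and 5 of 7 neutrophil markers tested were higher than in H/+ cDC1, with 1 and none lower, and so were 3 of 16 immediate early genes. In H/H hybrid DCs of experiment 1 the counts were 12 of 15, 3 of 7 and 3 of 16, with none lower. Of all genes 16.5% passed in the H/+ and 7.85% in the H/H comparison, in either direction. The summed neutrophil level was 18.2 to 20.4 CPM in H/+ hybrid DCs and 0.745 to 0.794 CPM in H/+ cDC1, where Ly6g and Mmp8 were at 0. Their part in the levels of Tef and Dbp was not tested.

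**Figure D3:**
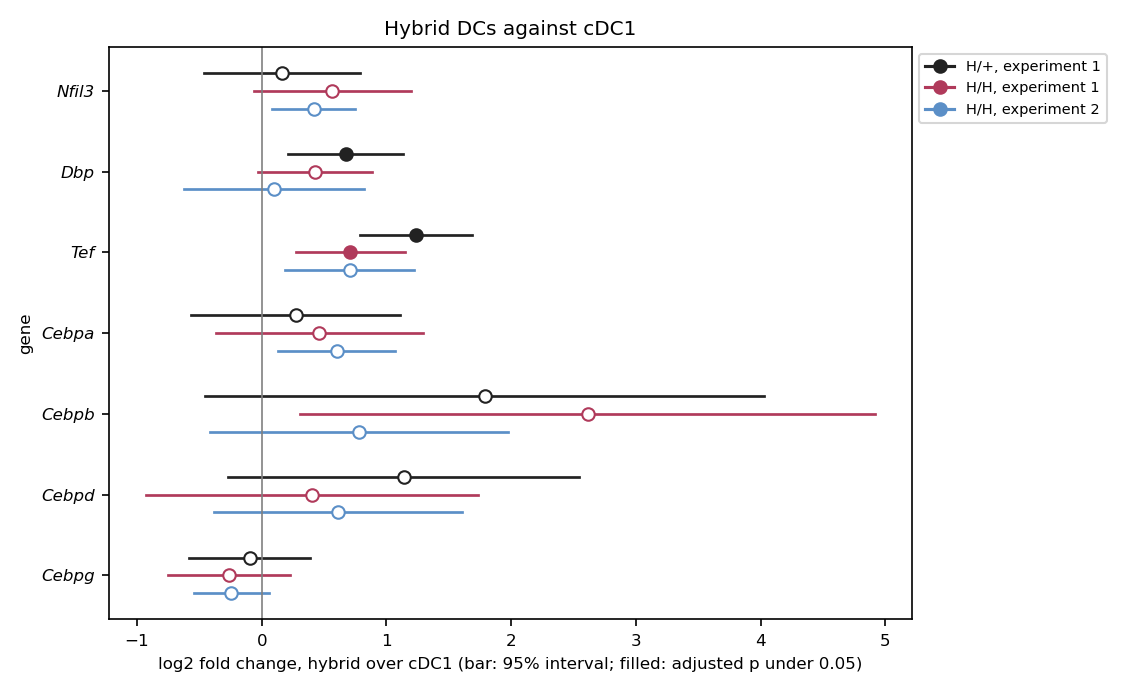
Log2 fold change of hybrid DCs over cDC1 with its 95% interval for the 7 genes tested, in H/+ and H/H mice of experiment 1 and H/H mice of experiment 2. Filled points passed an adjusted p of 0.05. Tef lies right of 0 in all 3 comparisons, at 1.24, 0.71 and 0.70, and passes in those of experiment 1.

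Of 19 listed clock genes that act on or with the PAR bZIP factors, 16 were tested, and 11 were lower and 1 higher in WT cDC1 than in WT cDC2. Another 4 did not pass, and 44% of all genes passed in either direction. The 16 had a median log2 fold change of -1.31 beside -0.07 over all genes. Among the genes that were lower in cDC1 were Bhlhe40, a repressor of CLOCK and BMAL1 (62.8 against 624 CPM, log2 fold change -3.31), and Rora, an activator of Bmal1 (0.560 against 5.70 CPM, -3.30). The gene of BMAL1, Arntl, was also lower in cDC1 (1.38 against 3.11 CPM, -1.17), as were Per1 (24.2 against 72.9 CPM, -1.59) and Cry2 (3.01 against 8.29 CPM, -1.46), genes named here after their values were seen. Per3 differed by -0.47 ± 0.20 and did not pass (adjusted p 0.073 by edgeR). In H/+ mice 9 clock genes were lower and 1 higher in cDC1, and in H/H mice 10 and 1, beside 38.3% and 36.7% of all genes.

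Hybrid DCs of H/+ mice exceeded cDC1 in 5 of the 16 clock genes and fell below in none. Here 16.5% of all genes passed in either direction. Nr1d2 (REV-ERBβ, a repressor within the clock) was at 4.20 against 1.25 CPM, Nr1d1 (REV-ERBα) at 1.90 against 0.630 CPM and Ciart at 17.4 against 5.82 CPM, with log2 fold changes of 1.74, 1.59 and 1.58. In H/H mice 2 of 16 rose in each experiment, Per1 in both, while 7.85% and 12.5% of all genes passed in either direction. Nfil3 differed between hybrid DCs and cDC1 by 0.16 ± 0.29 in H/+ mice and by 0.57 ± 0.29 and 0.42 ± 0.16 in H/H mice of experiments 1 and 2 on the log2 scale, none past the threshold. The time of day at which cells were taken is not given in the sources used here, and its part in these levels was not tested.

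**Figure D4:**
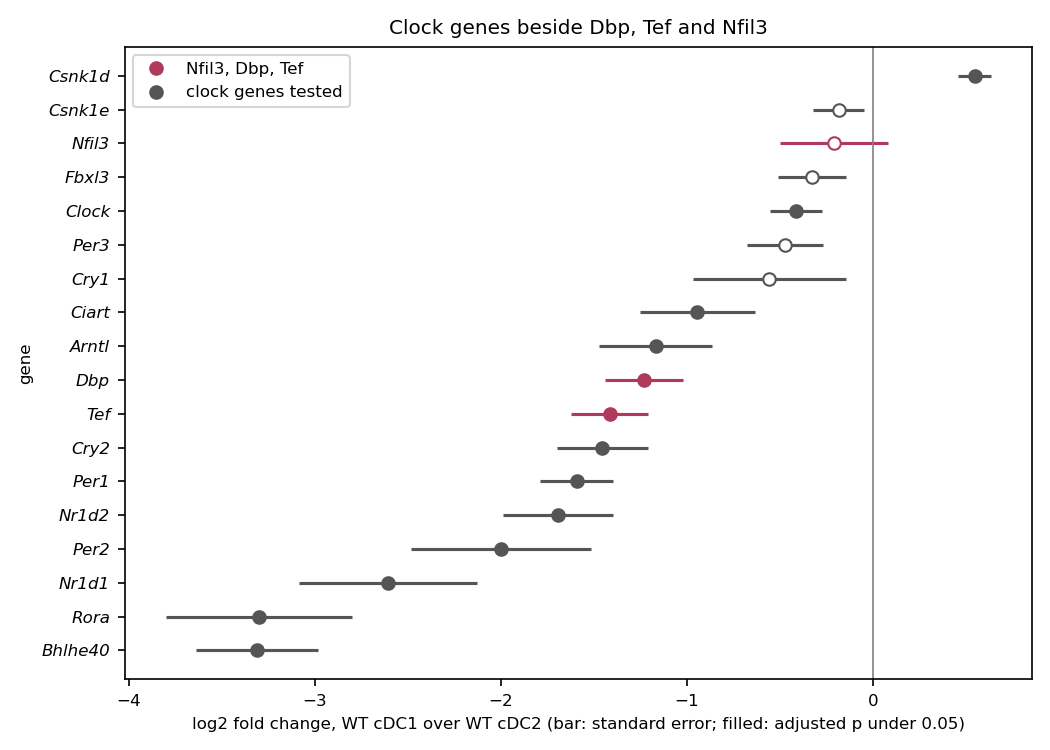
Log2 fold change of WT cDC1 over WT cDC2 with its standard error for Nfil3, Dbp and Tef beside 15 of the 16 clock genes tested. Filled points passed an adjusted p of 0.05. Dbp and Tef lie among the clock genes that were lower in cDC1, and Nfil3 near 0.

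Immediate early genes, which cells induce within minutes of stimulation or handling, also differed between these groups. In WT mice 11 of 16 were lower in cDC1 than in cDC2 and none higher, where 44% of all genes passed in either direction. Their summed level was 5189 to 5773 CPM in cDC1 and 10626.5 to 11261 CPM in cDC2. Egr2 was at 91.1 against 341 CPM, Nr4a1 at 814 against 2489 CPM and Zfp36 at 1057 against 2703 CPM. Markers of monocytes and macrophages summed to 633 to 758 CPM in WT cDC1 and 1465 to 1731 CPM in WT cDC2, with 10 of 15 tested lower in cDC1 and none higher. Of the 7 neutrophil markers tested 4 were lower and none higher, and the 13 listed summed to 0.511 to 0.916 CPM in WT cDC1 and 17.4 to 19.0 CPM in WT cDC2, with Camp at 0 in both groups, Ly6g and Mmp8 at 0 in cDC1, and Ngp and Elane at 0 in cDC2. The part of either set of genes in the levels of Dbp, Tef, Cebpb and Cebpd was not tested.

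Hlf, the third PAR bZIP gene, was close to the limit of detection. Its counts summed to 26 over the 16 libraries of experiment 1 and to 2 over the 12 libraries of experiment 2. In experiment 1 WT, H/+ and H/H cDC2 held 5, 10 and 6 of these counts, and all 10 of H/+ cDC2 came from 1 library. A count of 0 in WT cDC1 replicate 1 allowed a level of up to 0.118 CPM (3 counts, counting error only), above the mean of Hlf in WT cDC2 (0.0766 CPM).

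Among the C/EBP genes, Cebpb and Cebpd were lower in WT cDC1 than in WT cDC2, at low counts. Cebpb was at 0.275 and 0.0327 CPM in WT cDC1 (7 and 1 counts) and at 0.742 and 1.02 CPM in WT cDC2 (23 and 42 counts). Cebpd was at 0.511 and 0.131 CPM in WT cDC1 (13 and 4 counts) and at 1.03 and 1.29 CPM in WT cDC2 (32 and 53 counts). Neither gene's groups overlapped in WT mice, and the share of all genes without overlap is not given here.

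The log2 fold change of WT cDC1 over cDC2 was -2.55 ± 0.92 (SE) for Cebpb and -1.88 ± 0.63 for Cebpd, with adjusted p of 0.036 and 0.025 by edgeR. Without WT cDC1 replicate 2, which held 1 and 4 counts of the pair, the values were -1.67 (adjusted p 0.24) and -1.18 (0.21). Both calls were also lost without WT cDC2 replicate 2 (adjusted p 0.13 for Cebpb and 0.10 for Cebpd), and that of Cebpb without WT cDC2 replicate 1 (0.062). Spidr, on the strand opposite Cebpd, was lower in cDC1 too (12.1 against 16.8 CPM, log2 fold change -0.48, adjusted p 0.028), and Tmem189, opposite Cebpb, was not (8.16 against 6.92 CPM, adjusted p 0.27).

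In H/H mice Cebpb was at 0.0349 and 0.115 CPM in cDC1 and at 0.700 and 1.06 CPM in cDC2. The log2 fold change was -3.51 ± 1.03 (SE, adjusted p 0.015 by edgeR), and the call was lost without H/H cDC1 replicate 1 (adjusted p 0.12) or replicate 2 (0.0502) or H/H cDC2 replicate 2 (0.065). In H/+ mice the groups overlapped, since H/+ cDC2 replicate 2 held 0.138 CPM beside 0.790 CPM in replicate 1, and Cebpb did not pass (-2.10 ± 1.01, adjusted p 0.12). Without that library it did (-2.86, adjusted p 0.040). Cebpd did not pass in H/+ (-1.28 ± 0.65) or in H/H mice (-0.79 ± 0.61). The difference between the H/H and WT contrasts of cDC1 and cDC2 was -0.95 ± 1.45 for Cebpb and 1.09 ± 0.88 for Cebpd on the log2 scale, and no member passed this test of the difference, in which 1.9% of genes passed.

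Cebpa, the C/EBP factor of myeloid progenitors, passed in no comparison of cell types in experiment 1. Its libraries held 2.12 and 1.31 CPM in WT cDC1 and 3.71 and 1.82 CPM in WT cDC2. H/+ hybrid DCs held 4.19 and 2.02 CPM and H/H hybrid DCs 3.84 and 3.0 CPM. The groups overlapped in WT mice, and the log2 fold change of cDC1 over cDC2 was -0.68 ± 0.40 for WT, 0.39 ± 0.40 for H/+ and -0.08 ± 0.39 for H/H mice, none past the threshold in edgeR.

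In experiment 2 Cebpa was highest in H/H hybrid DCs. They held 13.4 and 15.7 CPM, H/H cDC1 held 10.4 and 8.75 CPM and WT cDC1 held 8.42 and 9.50 CPM. The 2 libraries of H/H hybrid DCs were above all other 10 libraries of the experiment. How common this was among all genes is not given here. The log2 fold change over H/H cDC1 was 0.60 ± 0.22 (SE), with an adjusted p of 0.089 by edgeR, where 12.5% of all genes passed. In the same comparison 12 of 15 monocyte and macrophage markers tested were higher in H/H hybrid DCs and none lower, and the 16 listed summed to 1146 to 1191 CPM against 323 to 430 CPM in H/H cDC1, with Ms4a3 at 0 in both. Their part in the level of Cebpa was not tested.

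Cebpg had higher means in cDC1 than in cDC2, the opposite of Dbp and Tef. Its libraries held 16.7 and 14.1 CPM in WT cDC1 and 13.4 and 9.44 CPM in WT cDC2, 18.55 and 18.6 CPM in H/+ cDC1 and 14.8 and 11 CPM in H/+ cDC2, and 18.2 and 15.0 CPM in H/H cDC1 and 13.1 and 12.5 CPM in H/H cDC2. The cDC1 and cDC2 groups did not overlap in any genotype, with cDC1 the higher. Among all genes, the share that also did not overlap is not given here. The log2 fold changes were 0.44 ± 0.23, 0.53 ± 0.23 and 0.37 ± 0.23 (SE), and the adjusted p of 0.13, 0.082 and 0.22 by edgeR missed the threshold. Cebpg passed with the replicate number as a block in WT (0.45, adjusted p 0.031) and H/+ mice (0.55, adjusted p 0.012), and without the filter on low counts in both (0.43, adjusted p 0.038, and 0.52, adjusted p 0.0083).

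Cebpe, the granulocyte factor, had 9 counts in all of experiment 1 and 7 in experiment 2. Of the 9 counts 5 came from WT cDC1 replicate 2. In experiment 2, 3 of the 7 came from Nfil3-/- hybrid replicate 2. No comparison of Cebpe was made.

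Over the 8 group means of experiment 1, Dbp and Tef had a Pearson correlation of 0.97. Cebpb and Cebpd had correlations from 0.89 to 0.95 with Dbp, Tef and each other, Cebpg from -0.86 to -0.79 with these 4 genes, and Nfil3 0.77 with Cebpa and 0.29 with Dbp. The means of all genes come from the same libraries, so these are descriptions. The genes most like a member were chosen by correlation over the same 8 means among 8530 genes with at least 5 CPM. For Dbp they were E2f2, Paox and Hrh1 (r from 0.99 to 1.00), for Tef Midn, Csk and Alas1 (all 1.00), and for Nfil3 Idnk, Ube2j2 and Nudt19 (0.96, 0.95 and 0.93). For Cebpa they were Colgalt1, Mxd1 and Apoe (0.91, 0.90 and 0.90), for Cebpb Dcaf15, Bmt2 and Gadd45g (all 0.98), for Cebpd Miip, Zc3h12a and Ddx5 (all 0.99) and for Cebpg Ankfy1, Ncapg2 and Phkb (0.98, 0.97 and 0.96).

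No member passed between genotypes of the Irf8 +32H allele within a cell type. In cDC1, H/+ mice against WT gave 0 of 7 members beside 1.47% of all genes, and H/H mice against WT gave 0 of 7 beside 4.17% in experiment 1 and 0 of 7 beside 6.32% in experiment 2. In cDC2, 0 of 7 passed in H/+ mice, beside 0.0249% of genes, and 0 of 7 in H/H mice, beside 0.0811%. No member had an unadjusted p under 0.05 in these 5 comparisons by edgeR, and DESeq2 called none of them either.

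Irf8, whose enhancer carries the allele, fell in H/H cDC1 from 2270 to 834 CPM in experiment 1 (log2 fold change -1.44) and from 2141 to 611 CPM in experiment 2 (-1.81). Zeb2 rose in H/H cDC1 from 0.855 to 4.78 CPM (2.50) and from 0.733 to 6.89 CPM (3.22). Beside these changes Nfil3 differed by -0.13 ± 0.30 (95% interval -0.77 to 0.50) in experiment 1 and by 0.10 ± 0.16 (-0.24 to 0.43) in experiment 2. In experiment 2 the clock genes Per1, Bhlhe40 and Ciart were higher in H/H than in WT cDC1, by 0.60, 1.14 and 1.34 on the log2 scale. Tef differed by 0.20 ± 0.21 and 0.23 ± 0.25, and Dbp by 0.0013 ± 0.22 and 0.44 ± 0.35.

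Of the 6 other members tested none passed in Nfil3-/- cDC1 or in Nfil3-/- hybrid DCs by edgeR or by DESeq2, where 3.03% and 3.73% of all genes passed by edgeR. Only Cebpa and Dbp, in hybrid DCs, had an unadjusted p under 0.05. The share of all genes under that unadjusted p is not given here and is at least the 3.03% and 3.73% that passed. In Nfil3-/- cDC1 the log2 fold changes over H/H cDC1 were -0.24 ± 0.35 (SE) for Dbp, 0.01 ± 0.25 for Tef, -0.08 ± 0.23 for Cebpa, 0.00359 ± 0.58 for Cebpb, -0.21 ± 0.49 for Cebpd and -0.12 ± 0.14 for Cebpg. The groups overlapped for all 6 genes.

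In Nfil3-/- hybrid DCs all 6 other members tested had lower means than in H/H hybrid DCs, and none passed. The median log2 fold change over all genes was -0.03 in this comparison. Cebpa held 7.37 and 10.8 CPM against 13.4 and 15.7 CPM. The log2 fold change of Cebpa was -0.68 ± 0.22 (95% interval -1.15 to -0.20), with an adjusted p of 0.10 in edgeR over all 6 groups. It passed in a fit of only the 4 libraries (-0.67, adjusted p 0.033) and with a term for libraries with Xist (-0.89, adjusted p 0.041).

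Dbp held 1.18 and 1.28 CPM in Nfil3-/- hybrid DCs against 2.28 and 1.97 CPM in H/H hybrid DCs (-0.79 ± 0.36, adjusted p 0.22 by edgeR). Cebpd differed by -0.94 ± 0.48, Tef by -0.35 ± 0.24, Cebpb by -0.24 ± 0.55 and Cebpg by -0.23 ± 0.14. The test of whether the loss of Nfil3 acted differently in hybrid DCs and in cDC1 gave -0.60 ± 0.32 for Cebpa and -0.55 ± 0.50 for Dbp, with adjusted p of 1.00 for both by edgeR.

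Markers of several cell types moved with the loss of Nfil3, where 3.03% of all genes passed in cDC1 and 3.73% in hybrid DCs. Of the 11 neutrophil markers tested, 3 were higher in Nfil3-/- than in H/H cDC1 and 3 in Nfil3-/- than in H/H hybrid DCs, and none was lower. The summed level of the 13 listed was 30.2 to 38.7 CPM in Nfil3-/- cDC1 and 1.43 to 1.52 CPM in H/H cDC1, and 65.1 to 117 CPM in Nfil3-/- hybrid DCs and 18.4 to 20.99 CPM in H/H hybrid DCs. None of the 13 markers was at 0 in the Nfil3-/- groups, while Ly6g was at 0 in both H/H groups and Retnlg, Camp and Elane in H/H cDC1. Of the 14 cDC1 markers 5 were higher and none lower in Nfil3-/- hybrid DCs (sums of 3652 to 3889 against 2471 to 2668 CPM), and of the 14 cDC2 markers 2 were lower and none higher (1202 to 1332 against 1968 to 2409 CPM). In Nfil3-/- cDC1, 4 cDC1 markers were higher and 1 lower (4713 to 5034 against 3965 to 4030 CPM), and 2 cDC2 markers were lower (369 to 395 against 603 to 835 CPM). Of the 7 erythroid and platelet markers tested 1 was higher in Nfil3-/- cDC1, and the 8 listed summed to 40.3 to 90.7 CPM against 6.50 to 8.08 CPM in H/H cDC1. The part of these markers in the levels of Nfil3, Cebpa, Cebpe and the other members in these groups was not tested. Jun and Egr1, of the immediate early genes, were lower in both Nfil3-/- groups (Jun 162 against 287 CPM in cDC1 and 196 against 314 CPM in hybrid DCs). Batf2, a bZIP partner gene, was higher in both (9.61 against 3.79 CPM and 12.1 against 4.74 CPM), and Id2 was higher in Nfil3-/- hybrid DCs (1727 against 1187 CPM, adjusted p 0.048). Of the 16 tested clock genes 1 passed in Nfil3-/- hybrid DCs, Ciart, which was lower (18.1 against 34.4 CPM, log2 fold change -0.92, adjusted p 0.021 by edgeR).

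**Figure D5:**
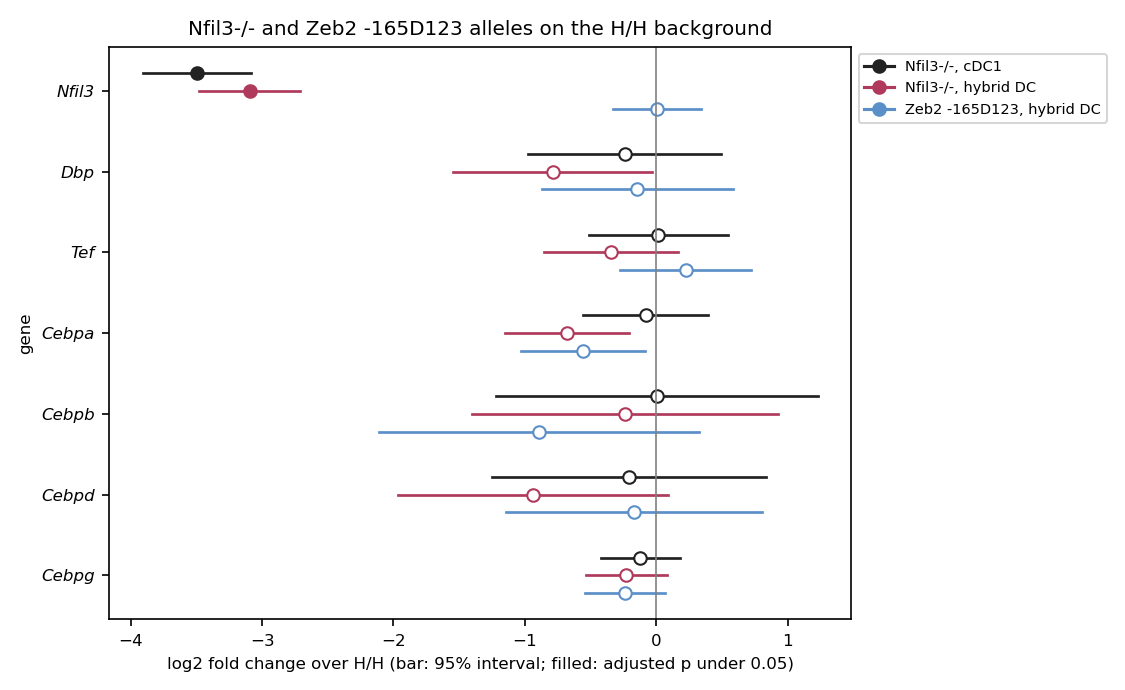
Log2 fold change over H/H cells with its 95% interval for the 7 genes tested, in Nfil3-/- cDC1, Nfil3-/- hybrid DCs and Zeb2 -165D123 hybrid DCs of experiment 2. Filled points passed an adjusted p of 0.05. Only Nfil3 in the Nfil3-/- groups is filled, at -3.50 and -3.10, and Cebpa lies at -0.68 and -0.56 in hybrid DCs of the Nfil3-/- and Zeb2 -165D123 groups.

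Nfil3 in Zeb2 -165D123 hybrid DCs overlapped that in H/H hybrid DCs. Zeb2 -165D123 hybrid DCs held 52.1 and 45.1 CPM of Nfil3 against 41.5 and 55.3 CPM, a log2 fold change of 0.00428 ± 0.16 (95% interval -0.33 to 0.34). Zeb2 itself fell from 42.8 to 14.9 CPM (log2 fold change -1.51, adjusted p 0.0055 by edgeR). No member passed, while 4.03% of genes did.

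Cebpa in Zeb2 -165D123 hybrid DCs held 9.94 and 9.80 CPM, below both H/H hybrid libraries (13.4 and 15.7 CPM). The log2 fold change was -0.56 ± 0.22 (unadjusted p 0.023, adjusted p 0.21 by edgeR). Cebpb differed by -0.89 ± 0.57, Cebpg by -0.24 ± 0.14, Cebpd by -0.17 ± 0.46, Dbp by -0.14 ± 0.34 and Tef by 0.22 ± 0.24. Per3, the clock gene with 2 D-box sequences shown above, rose from 3.29 ± 0.128 to 7.10 ± 0.860 CPM (SD, n = 2 each; log2 fold change 1.11 ± 0.22 SE, adjusted p 0.010 by edgeR across all genes), the only 1 of 16 clock genes tested to pass. In Nfil3-/- hybrid DCs Per3 differed from H/H hybrid DCs by 0.37 ± 0.23. In Zeb2 -165D123 hybrid DCs 4 of 16 immediate early genes and 7 of 15 monocyte and macrophage markers were higher, with 0 and 2 lower. Of all genes 4.03% passed against H/H hybrid DCs. Of the 14 cDC1 markers 5 were higher and none lower, and of the 14 cDC2 markers 1 was higher and 3 lower. Their part in the levels of Per3 and Cebpa was not tested.

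Between Nfil3-/- and Zeb2 -165D123 hybrid DCs, Nfil3 was the only member past the threshold, at -3.10 ± 0.18 on the log2 scale (adjusted p 3.27e-08 by edgeR), where 10.9% of genes passed. Tef was lower in Nfil3-/- hybrid DCs (7.08 and 5.52 CPM) than in Zeb2 -165D123 hybrid DCs (10.8 and 7.89 CPM), by -0.57 ± 0.24 with an adjusted p of 0.14. Cebpa differed by -0.12 ± 0.23. These 2 groups share no library, but each was also compared with the same H/H hybrid DCs.

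The genes that pair with C/EBP proteins or act on them were measured beside the members. In WT mice 2 of 10 were higher and 2 lower in cDC1 than in cDC2, a share near the 44% of all genes that passed. Trib1, an adaptor that brings about the breakdown of C/EBPα, was at 50.4 CPM in WT cDC1 and 14.5 CPM in WT cDC2 (log2 fold change 1.80, adjusted p 1.73e-06 by edgeR), and Batf3 at 143 against 69.7 CPM (1.04). Ddit3 (CHOP, a C/EBP that blocks its partners) was at 14.9 against 20.4 CPM (-0.46). In H/+ mice 4 were higher and 1 lower in cDC1, beside 38.3% of all genes, and in H/H mice 5 were higher and none lower, beside 36.7%. Trib1 was lower in H/H than in WT cDC1 in both experiments, at 28.4 against 50.4 CPM and 109 against 192 CPM (log2 fold changes -0.83 and -0.82). Over the same groups Cebpa had log2 fold changes of 0.54 ± 0.40 and 0.10 ± 0.22.

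Nfil3 and Cebpa stood higher in experiment 2 than in experiment 1. Both experiments held WT cDC1, H/H cDC1 and H/H hybrid DCs. Nfil3 had means of 7.90 ± 2.39, 7.25 ± 0.964 and 10.7 ± 1.36 CPM (SD, n = 2) in experiment 1 and of 33.9 ± 4.31, 36.3 ± 0.872 and 48.4 ± 9.76 CPM in experiment 2. Cebpa had means of 1.72 ± 0.575, 2.48 ± 0.296 and 3.42 ± 0.593 CPM in experiment 1 and of 8.96 ± 0.764, 9.60 ± 1.20 and 14.5 ± 1.68 CPM in experiment 2. No library of the shared groups of experiment 2 overlapped those of experiment 1 for either gene. Among all genes, the share without such overlap is not given here.

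In a fit of all 28 libraries, added after the levels were seen, the mean difference of experiment 2 over 1 in the 3 shared groups was 2.17 ± 0.15 (SE) for Nfil3, 2.12 ± 0.20 for Cebpa, 2.43 ± 0.52 for Cebpb, 0.96 ± 0.33 for Cebpd and 0.56 ± 0.11 for Cebpg on the log2 scale. Dbp was lower (-0.38 ± 0.15, adjusted p 0.040 by edgeR), and Tef did not pass (0.31 ± 0.13, adjusted p 0.058). Of the genes on the opposite strand, Tmem189, opposite Cebpb, was higher in experiment 2 (1.22 ± 0.09, adjusted p 1.26e-10 by edgeR). Spidr, opposite Cebpd, was lower (-0.26 ± 0.11, adjusted p 0.048), and Sphk2, opposite Dbp, did not pass (-0.10 ± 0.10). Of all genes 46.9% passed in this comparison. Dusp1 (3.02), Jun (2.02) and Egr1 (1.64), immediate early genes named after their values were seen, also stood higher in experiment 2, and so did Trib1 (1.94). Each experiment is a separate table, and the experiment cannot be told apart from library preparation, sequencing, animals or time of sampling.

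The contrasts within an experiment were then compared between experiments in the same fit. The H/H effect in cDC1 differed between the experiments by 0.24 ± 0.36 for Nfil3 and -0.44 ± 0.48 for Cebpa, and no member passed, beside 0.0121% of genes. The difference of H/H hybrid DCs over cDC1 changed by 0.00806 ± 0.32 for Tef and -0.14 ± 0.35 for Nfil3. No gene passed there (0% of 16527), and no member had an unadjusted p under 0.05.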

How the data were processed

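The deposited values are expected counts per gene, 1 table per experiment. Per the submitters' processing notes the authors used DRAGEN, bcl2fastq and edgeR, with no versions stated, and the build is not given in the sources used here. Per the labels' protocols, cDNA was made with a SMARTer Ultra Low kit. The counts were rounded (10.8% and 10.2% of values were not whole), and 287 repeated gene IDs were dropped from each table. Positions and exon lengths came from GENCODE M21 (GRCm38), which held 99.4% of the IDs.

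The tables were modelled separately in edgeR 4.0.16 (R 4.3.3): filterByExpr (16036 and 14504 genes kept), TMM factors (0.914 to 1.11 and 0.962 to 1.03) and the robust quasi-likelihood test with 1 coefficient per group, adjusted by Benjamini-Hochberg over all genes at 0.05. SE is the absolute log2 fold change divided by the root of F. Levels are CPM of the TMM-scaled library. A limit on a count of 0 is 3 counts and covers counting error only. The code was tested on simulated data. Alternatives were DESeq2 1.42.0, RLE size factors, no filter, only the groups compared, a replicate block, a term for libraries with Xist, plain library totals and each library left out.

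All 9 genes are described. Beside them the text names Irf8, Zeb2, up to 3 genes of each list with the largest change past the threshold in a comparison, and the 3 genes most like each member, and says where others were named after their values were seen. Values of 1 clock gene are not given here. Members and lists were chosen with earlier results of these data known.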

Additional observations from a re-analysis of the deposited data

How the results depend on the processing

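Among members past the threshold in the main or an alternative fit, none reversed under any alternative tried. A count of 0 members in both fits is taken below as within 1.5 times. Most comparisons held 0 members in the main fit, so many of these agreements are of 0 with 0. The number of members past the threshold stayed within 1.5 times in 21 of 21 comparisons with RLE size factors and in 21 of 21 with a replicate block, and in 20 of 21 with DESeq2, 18 of 21 without a filter on low counts, 17 of 21 with only the groups compared and 7 of 8 with a term for Xist libraries. Leaving out 1 library kept it so in 80 of 92 fits and moved it in 12. For single members, 18 of 65 leave-one-out values no longer passed and 1 newly passed. For H/+ hybrid DCs over cDC1 the count fell from 2 to 1 with DESeq2, without a filter, with only the groups compared and without any 1 library (1 to 1). For H/H hybrid DCs over cDC1 in experiment 1 it went from 1 to 2 without a filter, to 0 with only the groups compared and to 0 to 1 without 1 library. For H/+ cDC1 over cDC2 it went from 2 to 4 without a filter, where Cebpb (adjusted p 0.046) and Cebpg (0.0083) passed. For Nfil3-/- over H/H hybrid DCs it went from 1 to 2 with only the groups compared and with the Xist term, where Cebpa passed. For Nfil3-/- hybrid DCs over Nfil3-/- cDC1 it fell from 1 to 0 with only the groups compared and to 0 to 1 without 1 library. For WT cDC1 over cDC2 it was 2 to 4 without 1 library. The cause of these changes was not tested.

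The labels do not say that a replicate number pairs libraries. Same-numbered libraries had correlations of their deviations from 0.11 to 0.34 in experiment 1 and from -0.20 to 0.23 in experiment 2. With the replicate block the count of members called went from 4 to 5 for WT and from 2 to 3 for H/+ cDC1 over cDC2, where Cebpg passed (0.45, adjusted p 0.031, and 0.55, adjusted p 0.012). The Xist term could not be told apart from the block in experiment 1 and was not run there. With 2 libraries a group, and 1 to 42 counts of Cebpb per library in experiment 1, the low genes are the least certain.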
